A study of Homo sapiens with 12 samples.

Results

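The genes described here changed in one direction under 3 ways of stopping transcription in HCT116, a human colorectal carcinoma cell line: degradation of POLR1A, degradation of POLR2A, and actinomycin D. A gene was taken as a member when its log2 fold change against the DMSO controls had the same sign in each treatment, and 9058 of 23593 tested genes met that rule (4665 higher, 4393 lower). Of these members, 6722 also passed the test of the equal-weight mean of the 3 treatments against the controls (3286 higher, 3436 lower), and they are called common genes below. The direction is therefore what the rule chose, and the sizes, the named genes, the gene groups and the differences between treatments are what is described. All 3 comparisons share the same 3 control libraries, so agreement between them is not independent evidence.

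The POLR1A-AID1 line carries an auxin-inducible degron on POLR1A, the largest subunit of RNA polymerase I; it had doxycycline at 1 µg/ml starting 24 h ahead of the ligand, to switch on OsTIR1, and then 500 µM IAA, an auxin. The POLR2A-AID2 line carries the degron on POLR2A, the largest subunit of RNA polymerase II, and had 1 µM 5-PH-IAA. Wild-type HCT116 cells had actinomycin D at 5 µg/mL, or DMSO alone as the control. The titles give 8 h for both degron groups and for DMSO and 6 h for actinomycin D, whereas the extraction text gives a 6 h harvest. Each group has 3 libraries of total RNA depleted of ribosomal RNA, from dishes treated separately on 1 day and described as technical replicates, so p-values measure only the spread between dishes. Each line is 1 genotype with no untreated library used here, so the effects of line, inducer and ligand cannot be told apart from depletion of the polymerase.

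RNA polymerase I transcribes the precursor of the large ribosomal RNAs in the nucleolus, and RNA polymerase II makes messenger RNA and most long non-coding RNA. Actinomycin D binds DNA and blocks elongation, with the ribosomal RNA genes being the most sensitive. When synthesis stops, a short-lived transcript such as that of a regulatory gene falls quickly while a long-lived one persists. A library reports shares of RNA and no spike-in was used, so a higher value here is higher relative to the other transcripts and need not mean more molecules.

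Library totals were 18796962 to 21802217 estimated counts after POLR1A depletion, 11289094 to 15037410 after POLR2A depletion and 20302164 to 27393969 with actinomycin D, against 12235068 to 17535685 in controls. The POLR2A-depleted libraries detected the most genes, 37371 to 39193, against 30774 to 31743 in controls. Mitochondrially encoded RNA took 5.62 to 6.03%, 8.74 to 10.5% and 3.51 to 3.65% of counts in those 3 treatments, against 6.14 to 8.27% in controls. Levels below are TMM-scaled counts-per-million (CPM). The exceptions are the epithelial and blood cell markers of this paragraph, given as CPM of the library totals without TMM scaling. Of 15 epithelial markers, KRT8 had group means of 1040 to 1830 CPM, KRT18 of 442 to 1030, EPCAM of 110 to 265 and CDH1 of 25.4 to 108. In contrast, CDH17, CEACAM5, KRT20, LGALS4, MUC2, TSPAN8 and VIL1 had group means of 3.97 CPM or less, and CEACAM6 had no count in any library. The 15 summed to 1997 to 2097 CPM after POLR1A depletion, 2680 to 2686 after POLR2A depletion and 2943 to 3161 with actinomycin D, against 3591 to 3801 in controls. With TMM scaling the 11 tested ones summed to 1946 to 2081, 2386 to 2591 and 3209 to 3485 in the same order, against 3532 to 3995 in controls. The 14 blood cell markers summed to 5.8 to 6.56 CPM after POLR1A depletion, 23.7 to 34.1 after POLR2A depletion and 5.86 to 6.48 with actinomycin D, against 5.59 to 7.11 in the controls, and 2 to 6 of them were at 0 in a library. ITGAM, at a mean of 10.6 CPM, took the largest share of that sum after POLR2A depletion, while CD3D was at 0 there. The part of depth, detection and these markers in the results was not tested. The degron acts on protein, so the RNA level of its target checks no label, yet both target genes were themselves common genes. POLR1A RNA was at 147, 151 and 145 CPM after POLR1A depletion, 128, 142 and 133 after POLR2A depletion and 193, 203 and 177 with actinomycin D, against 234, 249 and 230 in controls. POLR2A RNA was at 908, 910 and 945, at 1094, 1073 and 1110, and at 576, 620 and 558 in the same 3 treatments, against 468, 561 and 514 in controls. POLR1A was thus lower, by -0.61 ± 0.04 on the log2 scale in the mean (SE), and POLR2A higher, by 0.70 ± 0.05 (edgeR quasi-likelihood test, adjusted p = 2.2e-10 and 1.3e-10).

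Common genes made up 28.5% of the tested genes, 13.9% as higher and 14.6% as lower. The mean contrast alone called 46.9% of tested genes, of which 4354 differed in direction between treatments. A stricter set of 2735 genes passed in every single comparison (1232 higher, 1503 lower, or 5.22% and 6.37% of tested genes). Single comparisons called 39.1% of genes after POLR1A depletion, 61.4% after POLR2A depletion and 53.4% with actinomycin D. The median change of the common lower genes was -0.51 after POLR1A depletion, -0.91 after POLR2A depletion and -0.93 with actinomycin D, and that of the common higher genes was 0.57, 0.60 and 0.69, all on the log2 scale. The median over all tested genes was 0.02 in the mean. This balance rests on the scaling: trimmed-mean (TMM) scaling put 48.9% of common genes on the higher side, upper-quartile scaling 63.2% and scaling to mitochondrially encoded mRNAs 80.6%, with the median of all genes moved by 0.14 and 0.33.

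The shared direction did not mean a shared size, and in this the common genes were near all tested genes. Among the common lower genes 2910 of 3436 (84.7%) differed between the 3 treatments, and among the common higher genes 2812 of 3286 (85.6%). The background was 81.6% of all tested genes. The test leaves the controls out (edgeR quasi-likelihood F test, 2 degrees of freedom, adjusted p under 0.05). Of the common lower genes 1533 were lowest with actinomycin D, 1427 after POLR2A depletion and 476 after POLR1A depletion. The common higher genes had their largest change after POLR2A depletion in 1323 cases, with actinomycin D in 1283 and after POLR1A depletion in 680. Over all 23593 tested genes the largest change was after POLR2A depletion in 10092, with actinomycin D in 9067 and after POLR1A depletion in 4434. The split of the common higher genes was close to this one.

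Only 329 genes, 1.39% of those tested, passed in each comparison with a change of at least 1 on the log2 scale (2-fold) in the mean and in each treatment: 123 higher and 206 lower, or 0.521% and 0.873%. The 206 lower genes had a median control level of 10.9 CPM and included 123 protein-coding genes, 43 long non-coding RNAs and 19 pseudogenes. The 123 higher genes had a median control level of 0.485 CPM, and 10 of them reached an average log2 level of 3, against 85 of the lower genes. All 329 remained common genes under each of the 4 other scalings. With scaling to mitochondrially encoded mRNAs 233 of them still passed in every comparison. That scaling moved the medians of all tested genes from 0.01, 0.08 and -0.06 to 0.37, -0.20 and 0.82 in the 3 treatments. These moves are smaller than the change of 1 that the set required, so the kept direction was fixed by the rule. At the edge of the 2-fold limit on the higher side stood FDXR, with 1.03 as its smallest change, just inside it, and TRIOBP, with 0.99, just outside. On the lower side NXT1 was just inside, at -1.003 after POLR2A depletion, and TMEM177 just outside, at -0.998 after POLR1A depletion.

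MYC, the transcription factor that drives growth and ribosome production, led the lower genes when each gene is ranked by its smallest change. It was at 135, 132 and 151 CPM after POLR1A depletion, 90.4, 75.2 and 79.2 after POLR2A depletion and 10.5, 12.7 and 12.4 with actinomycin D, against 662, 783 and 759 in the controls. This rank took protein-coding genes that passed in every comparison, reached 3 in average log2 CPM and had no overlap of treated and control libraries. By that choice every treated library lay below every control, as for 7.75% of tested genes. The treatments did not overlap each other either. The log2 changes were -2.40 ± 0.08, -3.17 ± 0.09 and -5.94 ± 0.10, with a mean of -3.84 ± 0.06 (SE; adjusted p = 9.8e-17), and they differed between treatments (adjusted p = 7.3e-14).

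Other regulators and a secreted signal stood beside it. SOX4, a transcription factor of progenitor cells, was at 49.7, 46.9 and 49.0 CPM after POLR1A depletion, 12.7, 10.7 and 9.95 after POLR2A depletion and 75.6, 79.3 and 79.7 with actinomycin D, against 263, 273 and 246 in controls. Here POLR2A depletion gave the lowest level (-4.54 ± 0.08) and actinomycin D the mildest loss (-1.74 ± 0.06), whereas actinomycin D gave the largest loss of MYC. BMP4, a secreted signal of the TGF-beta family, was at 50.7, 53.5 and 50.8 after POLR1A depletion, 16.2, 16.5 and 17.1 after POLR2A depletion and 18.7, 16.3 and 15.8 with actinomycin D, against 150, 172 and 171 in controls. PPARGC1B, a coactivator of mitochondrial gene expression, was at 14.3, 16.0 and 16.0, at 10.3, 11.6 and 10.4, and at 16.3, 17.9 and 16.1 in the same treatments, against 62.8, 64.9 and 59.6 in controls. HOXA13, a homeobox factor of the hindgut, fell by 2.01 ± 0.16 in the mean, and GATA3 by 1.95 ± 0.25.

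The most even loss among the lower genes of this rank belonged to HAS3, a hyaluronan synthase of the cell surface. It was at 21.4, 22.1 and 24.2 CPM after POLR1A depletion, 26.9, 26.2 and 23.8 after POLR2A depletion and 19.0, 21.8 and 23.1 with actinomycin D, against 85.3, 88.6 and 84.5 in controls. Its log2 changes of -1.93, -1.75 and -2.01 still differed (adjusted p = 0.015). HS3ST1, which sulfates heparan chains, fell by 2.36 ± 0.07 in the mean, and TBC1D30, a protein of the Rab regulator family, by 2.16 ± 0.07. The remaining lower genes of this rank were KRTAP2-3 (-2.96 ± 0.13) and the histone gene H2BC26 (-2.77 ± 0.09), both with near-identical copies that estimated counts can mix, and 3 olfactory receptor genes described further on.

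**Figure D1:**
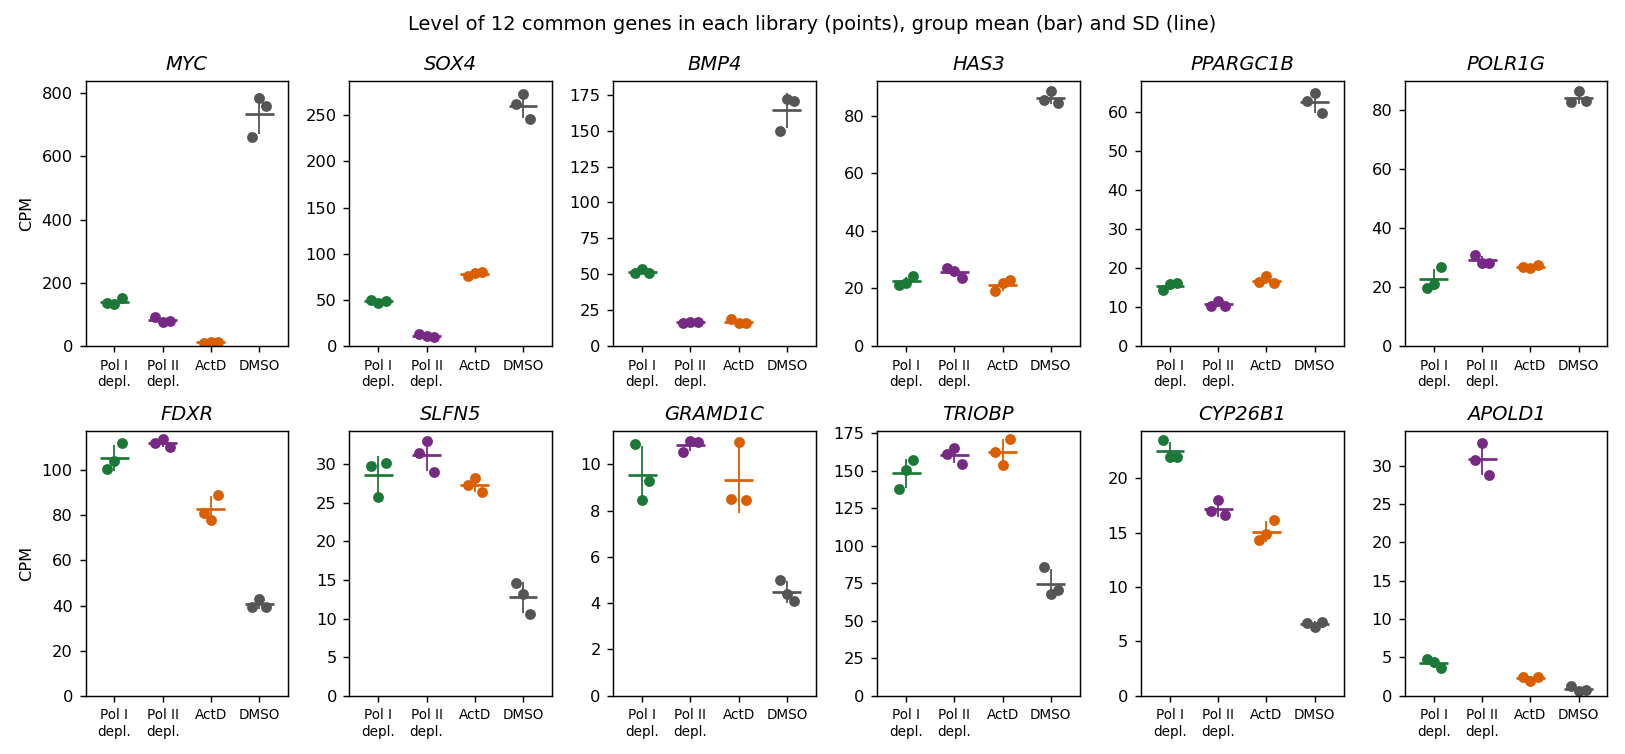
CPM (TMM-scaled, linear axes from 0) of 12 common genes in each of the 12 libraries, with points for libraries, bars for group means and lines for SD (n = 3). In the first row every treated library lies below every control, and in the second row every treated library lies above them; MYC is lowest with actinomycin D, SOX4 after POLR2A depletion.

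By the smallest of their 3 changes, the 12 higher genes of the same rank lay between 0.93 and 1.45, and the 12 lower ones between -1.55 and -2.40. The level needed for this rank was reached by 10 of the 123 higher genes past 2-fold and by 85 of the 206 lower ones. Over those whole sets the median of the mean change was 2.04 and -1.78. The ranked genes therefore do not compare the strongest rises with the strongest falls. FDXR, ferredoxin reductase of the mitochondria and a p53 target, was at 100.4, 104 and 112 CPM after POLR1A depletion, 112, 114 and 110.3 after POLR2A depletion and 81.0, 78.0 and 89.1 with actinomycin D, against 39.3, 42.7 and 39.4 in controls. All treated libraries lay above all controls, as the rule for naming required and as for 5.84% of tested genes. The mean change was 1.29 ± 0.06 (edgeR quasi-likelihood test, adjusted p = 3.9e-14). CYP26B1, which breaks down retinoic acid, was at 23.5, 21.9 and 21.9, at 17.0, 18 and 16.6, and at 14.3, 14.9 and 16.1 in the 3 treatments, against 6.71, 6.35 and 6.78 in controls. In the mean MR1, which presents microbial metabolites to T cells, rose by 1.43 ± 0.09.

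Of the 12 higher genes, 3 were not called different between the treatments. SLFN5, an interferon-inducible gene, was at 29.8, 25.7 and 30.2 CPM after POLR1A depletion, 31.5, 33.1 and 29 after POLR2A depletion and 27.3, 28.2 and 26.5 with actinomycin D, against 14.6, 13.1 and 10.6 in controls. TRIOBP, an actin-bundling protein, was at 137, 150.1 and 157, at 161, 165 and 154, and at 163, 153 and 171 in the same treatments, against 85.8, 68 and 70.3 in controls. GRAMD1C, a sterol transfer protein, was at 10.9, 8.44 and 9.26, at 10.5, 11 and 11, and at 8.52, 11 and 8.46, against 5.00, 4.38 and 4.09 in controls. The difference between POLR1A and POLR2A depletion was -0.13 for SLFN5 (95% interval -0.33 to 0.07), -0.11 for TRIOBP (-0.27 to 0.04) and -0.19 for GRAMD1C (-0.48 to 0.11), so the data allow differences as large as those bounds; 62.2% of all tested genes were called between these treatments. With actinomycin D in place of POLR2A depletion the intervals ran from -0.13 to 0.26, from -0.28 to 0.02 and from -0.26 to 0.32, where 56.2% of tested genes were called. Between actinomycin D and POLR2A depletion 70.9% were called.

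Some of the other higher genes had a much larger change after POLR2A depletion than in the other treatments. APOLD1, an endothelial early-response gene, was at 4.82, 4.38 and 3.59 CPM after POLR1A depletion, 30.7, 32.9 and 28.8 after POLR2A depletion and 2.43, 1.91 and 2.44 with actinomycin D, against 1.25, 0.659 and 0.701 in controls. Carboxypeptidase M, a membrane enzyme encoded by the gene CPM (a symbol, not the unit), was at 7.37, 7.06 and 6.68, at 34.3, 37.9 and 32.0, and at 6.52, 6.01 and 5.55, against 1.95, 2.34 and 2.28 in controls. Both were higher in every treated library, as the rule for naming required, and the POLR2A-depleted libraries stood apart from the rest. RASA4, a Ras GTPase activator with a near-identical neighbour, rose by 1.82 ± 0.16, CA2, a carbonic anhydrase, by 1.29 ± 0.08 and SYTL1, a vesicle-tethering protein, by 1.11 ± 0.10 in the mean. After POLR1A depletion, POLR2A depletion and actinomycin D, RASA4 had 1.39, 2.54 and 1.53, and CA2 had 0.99, 1.58 and 1.31. SYTL1 had 1.45, 0.93 and 0.94, so its largest change was after POLR1A depletion.

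**Figure D2:**
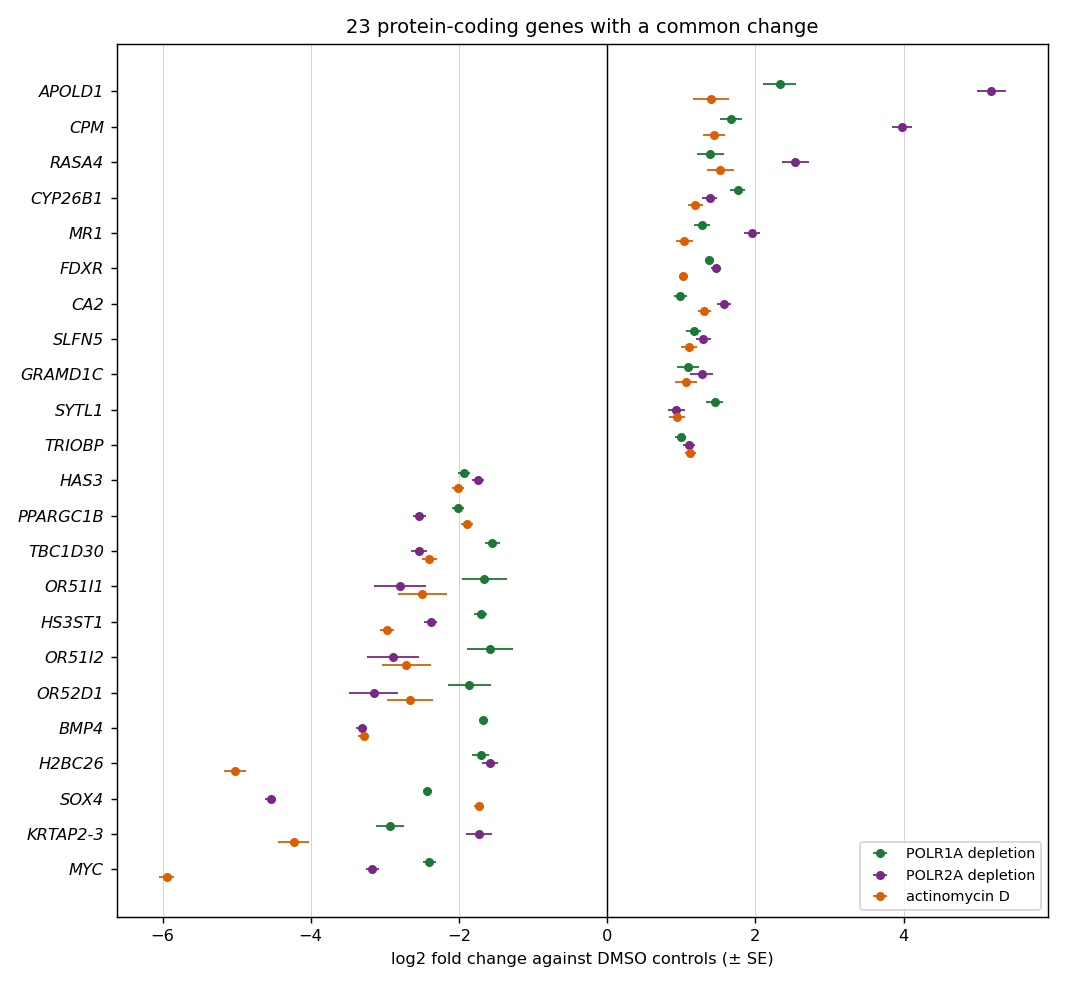
Log2 fold change against the DMSO controls with its SE for 11 higher and 12 lower protein-coding genes, ranked for inclusion by the smallest of their 3 changes; the colours mark POLR1A depletion, POLR2A depletion and actinomycin D. SLFN5, TRIOBP and GRAMD1C have their 3 points close together near 1, whereas APOLD1, MYC and SOX4 spread over more than 2 units.

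The MYC network showed loss of several members along with MYC. Of 12 tested genes 6 were common and lower and 3 common and higher (background 14.6% and 13.9%), with a median of -0.38 in the mean. MYCL, a MYC relative, fell by 1.21 ± 0.19, and MGA, a repressor that competes for the same partner, by 1.31 ± 0.04. MAX, the obligate partner of MYC, had a mean change of -0.54, MNT, a MAX-binding repressor, of -0.68 and MLXIP, a glucose-sensing relative, of -0.56, and each of these 3, like MLXIPL and MXD4, lost its call with scaling to mitochondrially encoded mRNAs. MLXIP was not called different between treatments, with -0.58, -0.52 and -0.59. The higher members were MLXIPL, another glucose sensor (0.57), and the MAX partners MXD4 (0.79) and MXD3 (0.48), and MXD3 lost its call when POLR2A depletion was left out of the mean.

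Ribosome assembly factors were lower as a group. Of 40 listed factors 32 were common and lower and none common and higher (background 14.6% and 13.9%), and 26 passed in each comparison. The list's median change was -0.80 after POLR1A depletion, -0.70 after POLR2A depletion and -0.43 with actinomycin D, beside 0.02 for all tested genes in the mean. Summed over the list, the level was 4780 to 4914 CPM after POLR1A depletion, 4976 to 5639 after POLR2A depletion and 7004 to 7185 with actinomycin D, against 7668 to 8758 in controls. With scaling to mitochondrially encoded mRNAs the count was 11 lower and 0 higher. NOP16, a nucleolar factor of the large subunit, was at 14.2, 16.3 and 17.9 CPM after POLR1A depletion, 15, 11.9 and 16.3 after POLR2A depletion and 9.22, 8.32 and 6.91 with actinomycin D, against 38.3, 41.4 and 40.5 in controls. GNL3 (nucleostemin), a nucleolar GTPase, was at 98.4, 95.5 and 97.2, at 86.1, 74.9 and 88.6, and at 89.7, 88.8 and 94.0, against 201, 229 and 232 in controls. The treated libraries lay below all controls for both genes, and GNL3 was close to even across the treatments (-1.19, -1.41 and -1.28), although the test between them passed (adjusted p = 0.011). RRS1, a regulator of ribosome synthesis, fell by 1.69 ± 0.09.

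Many assembly factor genes carry an E-box, the letters to which MYC and MAX bind, close to their start. The letters CACGTG, which read the same on both strands, were searched in RefSeq promoter windows of 300 bases on GRCh38.p14, from 250 bases ahead of the start to 50 after it. They stood in 16 of 39 windows of the list (33 of its 40 genes had a window), or 41.0%, against 8.75% of 18694 windows of all tested genes with one. Of the 16 genes that held them, 14 were common and lower, beside 32 of all 40 factors in the list. Members with and without the letters were not compared by a test. The share was 12% among windows of common lower genes and 7.42% among those of common higher genes. Past 2-fold it was 13.6% for the lower and 4.35% for the higher genes, and it was 3.12% among proteasome windows. Among lower lists described below, polymerase I genes had the letters in 1 of 19 windows (5.26%) and ZNF genes in 24 of 411 (5.84%). Both shares were below that of all windows. A match describes letters in a window and shows no binding. The windows of the 4 lowest common members that hold the letters are printed because both features meet there; WDR43, LTV1 and NOP2 were chosen after their values were seen, and capitals mark CACGTG.
WDR43 (chr2:28894417-28894716, plus strand): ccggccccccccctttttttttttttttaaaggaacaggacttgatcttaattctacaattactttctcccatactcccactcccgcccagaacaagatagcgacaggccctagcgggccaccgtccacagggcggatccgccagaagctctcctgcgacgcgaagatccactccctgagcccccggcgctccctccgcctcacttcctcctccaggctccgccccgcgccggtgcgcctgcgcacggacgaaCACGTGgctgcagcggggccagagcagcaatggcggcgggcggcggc
GNL3 (chr3:52685782-52686081, plus strand): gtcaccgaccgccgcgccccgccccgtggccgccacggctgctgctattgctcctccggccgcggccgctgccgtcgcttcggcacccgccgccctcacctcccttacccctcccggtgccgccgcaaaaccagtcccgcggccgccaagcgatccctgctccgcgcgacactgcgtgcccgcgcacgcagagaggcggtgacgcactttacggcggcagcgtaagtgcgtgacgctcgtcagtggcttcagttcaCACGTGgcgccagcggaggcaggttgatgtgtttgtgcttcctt
LTV1 (chr6:143843088-143843387, plus strand): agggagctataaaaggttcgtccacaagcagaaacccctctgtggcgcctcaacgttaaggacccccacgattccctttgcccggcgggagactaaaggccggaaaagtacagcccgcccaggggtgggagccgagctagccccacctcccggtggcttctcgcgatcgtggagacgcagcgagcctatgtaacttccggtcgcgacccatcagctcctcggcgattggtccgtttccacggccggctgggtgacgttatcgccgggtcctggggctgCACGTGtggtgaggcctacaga
NOP2 (chr12:6568242-6568541, minus strand): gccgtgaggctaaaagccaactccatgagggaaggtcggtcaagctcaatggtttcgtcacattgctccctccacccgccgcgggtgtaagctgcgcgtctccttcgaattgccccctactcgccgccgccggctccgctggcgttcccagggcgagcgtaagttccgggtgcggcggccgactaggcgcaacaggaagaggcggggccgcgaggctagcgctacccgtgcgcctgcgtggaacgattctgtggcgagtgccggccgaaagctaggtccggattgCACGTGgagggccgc

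In these 4 genes the letters begin at position 254 (WDR43), 257 (GNL3), 279 (LTV1) and 286 (NOP2) of the window. WDR43, a factor of small subunit assembly, had mean log2 changes of -0.54 after POLR1A depletion, -1.83 after POLR2A depletion and -1.79 with actinomycin D. LTV1, which helps export the small subunit, had -0.86, -1.28 and -1.21, and NOP2, a ribosomal RNA methyltransferase, -0.76, -0.28 and -1.74 in the same order. GNL3 alone of the 4 had a similar size in all treatments.

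RNA polymerase I itself was among the lower groups. Of its 15 tested subunits and factors 11 were common and lower and none common and higher (background 14.6% and 13.9%), and 9 passed in each comparison. The list's median was -0.64 after POLR1A depletion, -0.60 after POLR2A depletion and -0.56 with actinomycin D. POLR1G, a subunit of the polymerase, was at 19.8, 21.1 and 26.7 CPM after POLR1A depletion, 30.8, 28.3 and 28.3 after POLR2A depletion and 26.9, 26.3 and 27.5 with actinomycin D, against 82.4, 86.3 and 82.9 in controls. POLR1B, the second largest subunit, was at 109, 101 and 93.6, at 61.9, 68.1 and 70.2, and at 65.7, 64.8 and 66.1, against 176, 205 and 193 in controls. Mean changes were -0.97 for POLR1C, a subunit shared with polymerase III, -0.69 for POLR1E, -0.64 for UBTF, which opens the ribosomal RNA genes, and -0.73 for TTF1, the termination factor. Of the promoter selectivity factors, TAF1A fell by 0.77 ± 0.07 and TAF1D by 0.83 ± 0.04. POLR1H (-0.46) and RRN3 (-0.27), the initiation factor, had one direction and passed in the mean but not in each comparison, and RRN3 turned positive when libraries were scaled to mitochondrially encoded mRNAs. With that scaling 4 of the 15 were common and lower, and POLR1A, POLR1E, POLR1H, UBTF, TAF1A and TAF1D were not. POLR1H and RRN3 also lost their calls with upper-quartile scaling.

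Polymerase III followed in part, with 9 of 21 tested genes common and lower and 2 common and higher (background 14.6% and 13.9%, median -0.40 in the mean). The list's median was -0.10 after POLR1A depletion, -0.53 after POLR2A depletion and -0.59 with actinomycin D. POLR1A depletion called 9 lower and 4 higher (18.6% and 20.6% of all tested genes). BRF1, an initiation factor, fell by 1.04 ± 0.07 and POLR3E, a subunit, by 1.09 ± 0.05. After scaling to mitochondrially encoded mRNAs 2 were common and lower and 1 higher, and POLR3E lost its call.

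The subunits of polymerase II did not follow that pattern. Of 13 tested, 4 were common and higher and 1 common and lower (background 13.9% and 14.6%), with a median of 0.27 in the mean. By treatment the median was -0.06 after POLR1A depletion, 0.16 after POLR2A depletion and 0.45 with actinomycin D. POLR2A, described above, was the largest change; POLR2G rose by 0.49 ± 0.07, POLR2C by 0.35 ± 0.05 and POLR2L by 0.49 ± 0.12, the last without passing in each comparison and with no call when actinomycin D was left out. POLR2C lost its call with scaling to mitochondrially encoded mRNAs. POLR2D, the lower member, had only -0.14 ± 0.05 and lost its call without control replicate 2 (-0.08) and with DESeq2 (-0.12) and each other scaling. Of 30 pausing and elongation factors 6 were common and lower and 1 higher, close to the background on the lower side; without control replicate 2 the counts were 3 and 2, and with scaling to mitochondrially encoded mRNAs 1 and 1. NELFA, of the pausing factor NELF, fell by 0.86 ± 0.06 and LEO1, of the PAF complex, by 0.95 ± 0.08, NELFA losing its call with scaling to mitochondrially encoded mRNAs. AFF4, a scaffold of the super elongation complex, had 0.95, 0.13 and 0.06 in the 3 treatments, so its mean of 0.38 rests on POLR1A depletion and was 0.10 without it (adjusted p = 0.101).

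Host transcripts of small nucleolar RNAs, whose introns carry the guides of ribosomal RNA modification, had the same direction as the assembly factors. Of 23 tested, 18 were common and lower and none higher (background 14.6% and 13.9%). The list's median was -0.81 after POLR1A depletion, -1.18 after POLR2A depletion and -0.61 with actinomycin D. SNHG1 was at 145, 146 and 145 CPM after POLR1A depletion, 56.4, 53.3 and 54.6 after POLR2A depletion and 146, 152 and 148 with actinomycin D, against 279, 278 and 294 in controls. SNHG15 was at 17.0, 17.5 and 20.1, at 16.2, 19.8 and 14.2, and at 8.73, 10.1 and 10.1, against 49.2, 48.3 and 53.3 in controls. EPB41L4A-AS1 was the most even of the 3, at 9.65, 11.1 and 10.6, at 9.38, 10.6 and 10.2, and at 13.5, 15.4 and 12.4, against 36.1, 35.7 and 38.7 in controls. With scaling to mitochondrially encoded mRNAs 8 hosts were common and lower and none higher.

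Among other non-coding genes, 33 lower and 3 higher ones met the rule for naming. CASC19, a long non-coding RNA of the MYC region, fell by 1.89 ± 0.10, and the antisense genes ALDH1A3-AS1 and PHLDA1-AS1 by 1.73 ± 0.09 and 3.78 ± 0.22. For all antisense genes named here, ST3GAL6-AS1 and EPB41L4A-AS1 included, the strand setting of the counting is not given in the sources used here, so reads of the partner gene may be included. The 3 higher ones were ST3GAL6-AS1, at 2.54, 2.68 and 2.12 CPM after POLR1A depletion, 36.2, 39.5 and 37.9 after POLR2A depletion and 1.83, 2.51 and 2.58 with actinomycin D, against 1.02, 1.80 and 1.11 in controls, and LINC02035 and OLMALINC, with mean changes of 1.08 ± 0.12 and 0.66 ± 0.10. Long non-coding genes as a class had 8.04% common higher and 10.7% common lower of 4118 tested, beside protein-coding genes with 17.8% and 16.8% of 14958. The share called depended on level, and it was 6.48% higher and 5.00% lower in the fifth of tested genes with the lowest levels, and 20.6% and 18.6% in the fifth with the highest.

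**Figure D3:**
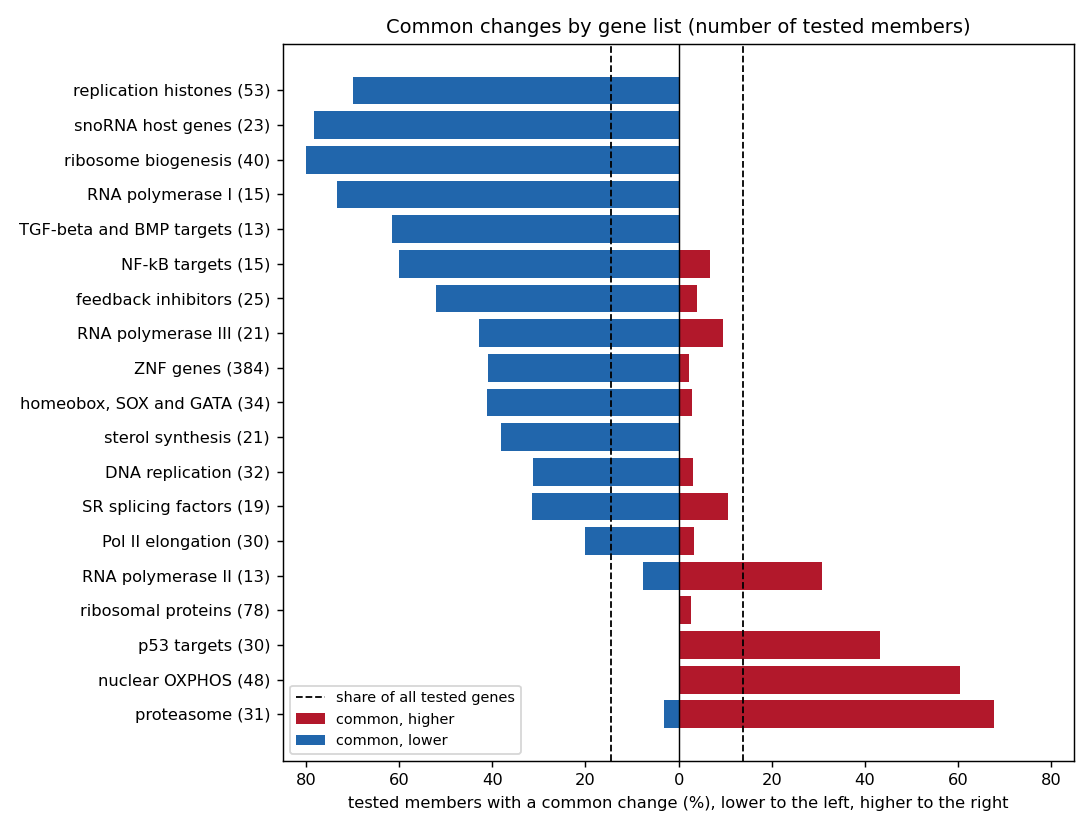
Share of the tested members of 19 gene lists that were common and lower (to the left) or common and higher (to the right), with dashed lines at the shares of all tested genes, 14.6% and 13.9%. Ribosome assembly factors, snoRNA hosts and polymerase I reach 73.3% or more on the lower side, and proteasome and nuclear respiratory chain subunits 60.4% or more on the higher side.

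Of the 19 lists in the plot of shares, the proteasome and the nuclear respiratory chain had the highest share of common higher members. Of 31 proteasome subunits 21 were common and higher and 1 lower (background 13.9% and 14.6%), and 13 and 1 passed in each comparison. The changes were small: the list's median was 0.45 after POLR1A depletion, 0.11 after POLR2A depletion and 0.33 with actinomycin D. PSMA7, of the core particle, was at 164, 169 and 179 CPM after POLR1A depletion, 173, 158 and 176 after POLR2A depletion and 196, 166 and 211 with actinomycin D, against 111, 120 and 117 in controls. PSMB4 and PSMB3, catalytic-ring subunits, rose by 0.58 ± 0.05 and 0.60 ± 0.05. After scaling to mitochondrially encoded mRNAs 5 of the 31 were common and higher. The letters CGGAAG or their reverse complement CTTCCG, the core that ETS factors bind, stood in 65.6% of 32 proteasome windows, in 68.4% of 19 polymerase I windows and in 27% of all windows, so they were frequent in a higher and in a lower list.

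Nuclear-encoded respiratory chain subunits were common and higher in 29 of 48 cases and common and lower in none (background 13.9% and 14.6%), or in 21 and 0 with scaling to mitochondrially encoded mRNAs. Only 11 passed in each comparison. POLR1A depletion called 12 higher and 7 lower, POLR2A depletion 27 and 3, and actinomycin D 47 and 0. The shares over all tested genes were 20.6% and 18.6%, 33.2% and 28.2%, and 24.9% and 28.5%. The list's median was 0.09 after POLR1A depletion, 0.24 after POLR2A depletion and 0.66 with actinomycin D. NDUFA4, of the terminal oxidase, was at 59.2, 54.7 and 65.6 CPM after POLR1A depletion, 52.4, 50.8 and 52.6 after POLR2A depletion and 71.0, 61.7 and 74.1 with actinomycin D, against 32.6, 38.1 and 36.3 in controls. SDHC, of complex II, rose by 0.61 ± 0.05 and COX7A2, of the terminal oxidase, by 0.58 ± 0.08. The mitochondrially encoded mRNAs had no common member among 13, but 3 common lower ones without POLR2A replicate 1 and 5 without control replicate 1. With actinomycin D all 13 were called lower (median -1.63), after POLR1A depletion 4 were lower, and after POLR2A depletion 2 were higher, so scaling to them moves each treatment by a different amount. Cytosolic ribosomal proteins had 2 common members of 78, both higher, or 4 higher without control replicate 2: their medians were -0.33, 0.00 and 0.62 in the 3 treatments, so the treatments parted there. RPS19, of the small subunit, had 0.10, 0.45 and 0.95.

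Targets of p53, the factor activated by nucleolar and DNA stress, were common and higher in 13 of 30 cases and common and lower in none (background 13.9% and 14.6%). In each comparison 9 passed. The group was not even: 28 were called higher and 0 lower after POLR1A depletion, 22 and 2 after POLR2A depletion, and 11 and 14 with actinomycin D. The shares over all tested genes were 20.6% higher and 18.6% lower, 33.2% and 28.2%, and 24.9% and 28.5% in the same order. FDXR is one of these targets. RRM2B, a ribonucleotide reductase subunit, was at 211, 196 and 205 CPM after POLR1A depletion, 93.4, 94.8 and 91.5 after POLR2A depletion and 111, 104 and 112 with actinomycin D, against 50.8, 58.0 and 56.5 in controls. DDB2, a DNA damage sensor, was at 63.2, 61.4 and 62.6, at 50.9, 51.1 and 51.0, and at 38.7, 38.5 and 40.6, against 25.9, 24.3 and 22.9 in controls. For both genes no treated library reached down to a control, and POLR1A depletion gave the highest values.

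**Figure D4:**
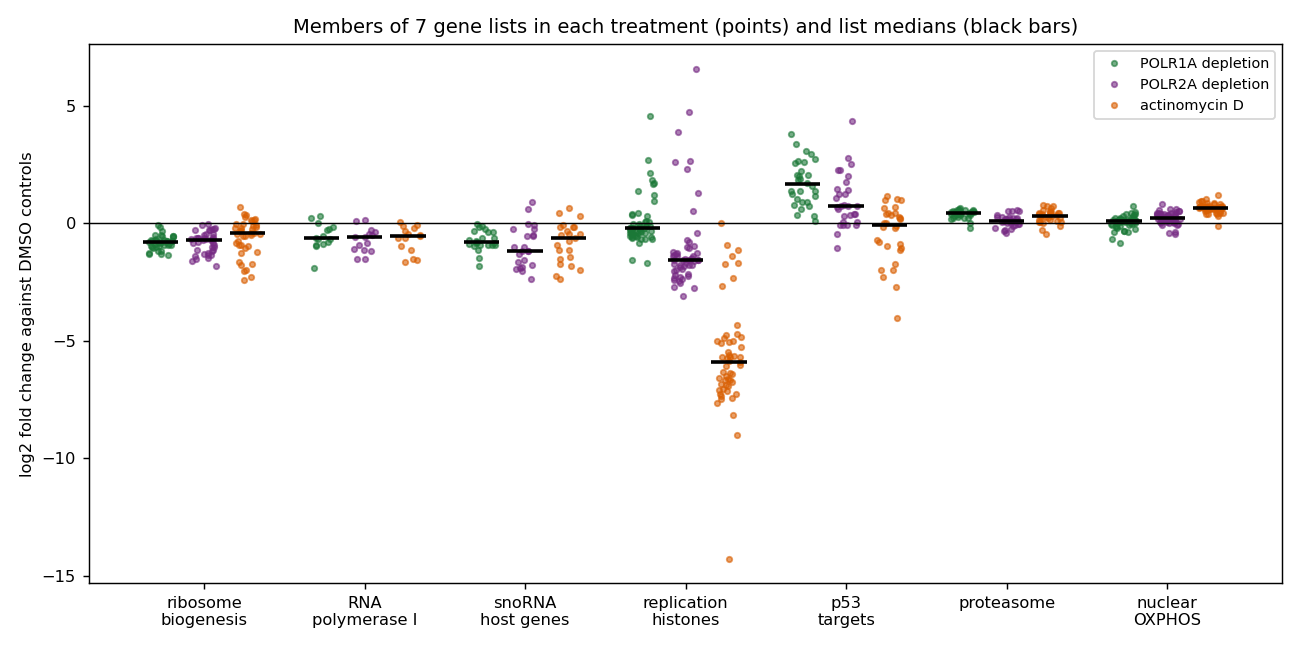
Log2 fold change of every tested member of 7 gene lists in each treatment (points, with horizontal scatter for legibility) and the list median (black bars). The medians of ribosome assembly factors, polymerase I and snoRNA hosts lie below 0 in each treatment, the p53 median is 1.67, 0.73 and -0.07, and replication histones fall furthest with actinomycin D.

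Of 25 feedback inhibitors of growth factor signalling 13 were common and lower and 1 higher, and of 15 NF-kB targets 9 and 1. The counts were 8 and 0 of 13 TGF-beta and BMP targets, and 2 and 0 of 13 YAP targets (15.4% lower, near the 14.6% of all tested genes). With scaling to mitochondrially encoded mRNAs these counts were 9 and 2, 5 and 2, 1 and 1, and 2 and 2, and without control replicate 2 the TGF-beta and BMP count was 5 lower. The lists were less even by treatment: after POLR1A depletion 10 feedback inhibitors were called higher and 8 lower, 4 and 5 TGF-beta and BMP targets, and 11 and 2 YAP targets, against 20.6% higher and 18.6% lower of all tested genes. The median change of the feedback inhibitors was -0.19 after POLR1A depletion, -0.59 after POLR2A depletion and -2.59 with actinomycin D. SPRY1, an inhibitor of receptor signalling, fell by 2.22 ± 0.24, DUSP2, a MAP kinase phosphatase, by 2.14 ± 0.13 and TRIB1, a pseudokinase, by 2.68 ± 0.04. BIRC3, an NF-kB target that inhibits apoptosis, was at 6.38, 5.72 and 5.12 CPM after POLR1A depletion, 10.1, 9.18 and 9.29 after POLR2A depletion and 4.10, 3.34 and 3.90 with actinomycin D, against 20.0, 23.3 and 26.9 in controls. CXCL8, a chemokine, fell by 1.91 ± 0.26 and was not called different between treatments. BAMBI, a decoy receptor, fell by 3.18 ± 0.19.

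In immediate early genes the treatments parted, with background shares of common calls at 14.6% lower and 13.9% higher. There 7 of 30 were common and lower and 1 common and higher, while the comparison of actinomycin D with controls called 27 lower (28.5% of all tested genes), and that of POLR1A depletion 15 higher and 4 lower (20.6% and 18.6%). After scaling to mitochondrially encoded mRNAs 2 were common and lower and 2 higher. The common higher member was EGR2, a zinc finger factor (1.32 ± 0.19), and JUND, an AP-1 subunit, was among the lower ones (-0.93 ± 0.09), a call lost with scaling to mitochondrially encoded mRNAs. Among 13 Wnt targets 4 were common and lower and 2 higher, or 2 and 2 after that scaling. RNF43, which removes Wnt receptors, was at 28.8, 26.2 and 32.7 CPM after POLR1A depletion, 38.8, 36.1 and 33.3 after POLR2A depletion and 60.5, 56.0 and 63.6 with actinomycin D, against 127, 116 and 119 in controls. AXIN2, a scaffold that ends Wnt signalling, had -0.51, -2.68 and -3.06, whereas NOTUM, an extracellular Wnt inhibitor, rose by 1.28 ± 0.10.

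Metabolic and cycle genes gave smaller counts, where the background was 14.6% common and lower and 13.9% common and higher. Of 21 sterol synthesis genes 8 were common and lower and none higher: INSIG1, a sterol sensor, fell by 1.84 ± 0.08 and SQLE, squalene epoxidase, by 1.65 ± 0.05. The list parted by treatment, with medians of -0.36 after POLR1A depletion, -0.67 after POLR2A depletion and 0.28 with actinomycin D. Actinomycin D called 12 of the 21 higher and 8 lower (24.9% and 28.5% of all tested genes). Of 32 replication genes 10 were common and lower and 1 higher. Their medians were -0.69, -0.20 and 0.18 in the same order, and actinomycin D called 16 higher and 11 lower. With scaling to mitochondrially encoded mRNAs 2 sterol genes were common and lower and none higher, and 6 replication genes were lower and 3 higher. CDT1, which licenses origins, was at 43.7, 44.8 and 45.2 CPM after POLR1A depletion, 55.5, 54.3 and 54.5 after POLR2A depletion and 52.0, 51.8 and 52.3 with actinomycin D, against 123, 134 and 119 in controls. Of 18 glycolytic enzymes 6 were common and higher and 3 lower, or 4 and 1 after that scaling. HK2, the inducible hexokinase, was among the lower, at 35.1, 36.3 and 37.7, at 37.9, 36.7 and 38.6, and at 83, 82.9 and 82.7, against 159, 178 and 175 in controls, and PKM, pyruvate kinase, rose by 0.65 ± 0.04. Stress chaperones were divided, since 6 of 18 were common and higher and 2 lower, or 6 and 1 after it. HSPA8, the constitutive chaperone, fell by 1.22 ± 0.05 while HSPB1, a small heat shock protein, rose by 0.56 ± 0.07.

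Of 19 interferon-stimulated genes 5 were common and higher and 2 lower, or 1 lower without POLR2A replicate 3 or control replicate 2. STAT2, which relays interferon signals, had 0.80, 0.76 and 0.85 in the 3 treatments and was not called different between them, with an interval of -0.11 to 0.18 for POLR1A against POLR2A depletion and of -0.19 to 0.09 for POLR1A depletion against actinomycin D. CBX5, the heterochromatin protein HP1 alpha, had 0.78, 0.70 and 0.77, again with no call between treatments. Its list of 35 genome organisation genes held 6 common higher and 7 common lower members. These shares of 17.1% and 20% were near the 13.9% and 14.6% of all tested genes. Of 27 Polycomb genes 3 were common and higher and 7 lower (11.1% and 25.9%), among them CBX2, a chromatin reader (-1.13 ± 0.06). After scaling to mitochondrially encoded mRNAs the genome organisation list held 3 common higher and no lower members, and the Polycomb list 1 of each.

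Genes of the zinc finger name series ZNF gave the most numerous lower group. Of 384 tested, 157 were common and lower and 9 higher, or 40.9% and 2.34% (background 14.6% and 13.9%). In each comparison 78 and 3 passed. The median was -0.14 after POLR1A depletion, -0.32 after POLR2A depletion and -1.22 with actinomycin D. ZNF567 was at 5.08, 4.96 and 5.25 CPM after POLR1A depletion, 4.49, 3.97 and 6.05 after POLR2A depletion and 3.29, 3.07 and 3.29 with actinomycin D, against 14.5, 13.8 and 17.3 in controls. ZNF595 had -6.61, -2.03 and -2.20, with the extreme value in the POLR1A line. With scaling to mitochondrially encoded mRNAs 72 were common and lower and 22 higher. Developmental factors of the homeobox, SOX and GATA families were common and lower in 14 of 34 cases and higher in 1, or in 7 and 5 with that scaling.

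Replication-dependent histone genes, which are expressed in S phase, were common and lower in 37 of 53 cases and higher in none (background 14.6% and 13.9%). Only 18 passed in each comparison. After scaling to mitochondrially encoded mRNAs 19 were common and lower and 1 higher. Their median was -0.21 after POLR1A depletion, -1.57 after POLR2A depletion and -5.90 with actinomycin D. H2BC18 was at 294, 309 and 335 CPM after POLR1A depletion, 97.9, 89.1 and 89.6 after POLR2A depletion and 2.70, 3.78 and 3.29 with actinomycin D, against 447, 550.4 and 514 in controls. Estimated counts divide reads between near-identical histone copies, so single members are uncertain.

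A run of neighbouring olfactory receptor genes on chromosome 11 fell together. OR52D1 (chr11:5488685-5489749, plus strand, GRCh38) was at 28.0, 29.3 and 21.0 CPM after POLR1A depletion, 9.05, 11.1 and 12.1 after POLR2A depletion and 14.2, 17.2 and 13.4 with actinomycin D, against 119, 54.4 and 112 in controls. All treated libraries lay below all controls, as the rule for naming required. However, control replicate 2 stood at less than the other controls, and it did so in all 13 genes of the run. Going out from OR52D1, 13 consecutive tested genes were common and lower, of which 9 passed in each comparison and were 2-fold lower or more, and the run spans chr11:5323359-5489749. OR51I1 and OR51I2 fell by 2.31 ± 0.24 and 2.39 ± 0.24, and without control replicate 2 the mean change of OR52D1 was -2.84. OR51B2, at the end of the run, lost its call without POLR1A replicate 3 (-0.53) and without control replicate 1 or 3 (-0.44 each). The run lies within the annotated span of OR51B5 (chr11:5303444-5505652, minus strand), which was itself not common because its change was 0.10 with actinomycin D. Without a stated strand setting, reads of overlapping genes cannot be assigned with certainty, and the run was examined after the values of OR52D1 were seen. TRIM6, the next tested gene beyond the run, was common and higher (1.15).

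**Figure D5:**
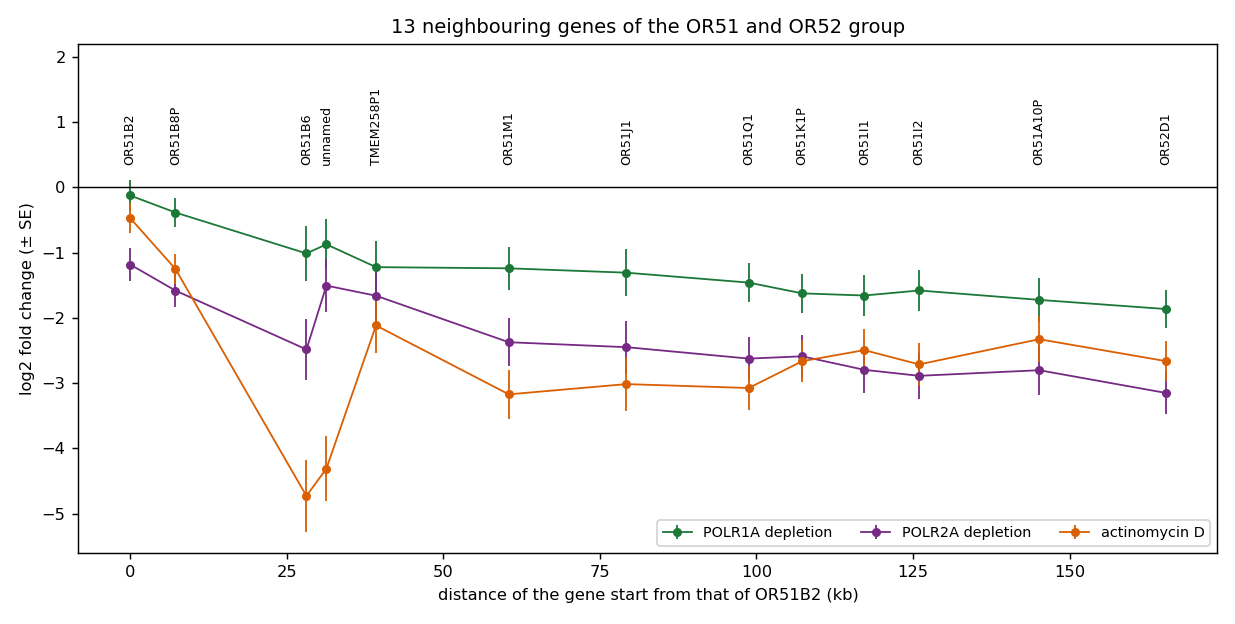
Log2 fold change (± SE) of the 13 neighbouring genes against distance of each gene start from that of OR51B2 in kb, with a line for each treatment. All points lie below 0; from TMEM258P1 onward the 3 lines stay between -1.22 and -3.17, and the actinomycin D line dips to -4.73 at OR51B6.

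Gene spans were close to those of all tested genes. The median span of protein-coding common genes was 31.0 kb for the higher and 28.9 kb for the lower ones, beside 32.0 kb for all tested coding genes. Across 5 equal bins of span the common higher share ran between 16.0% and 19.8% and the common lower share between 15% and 18.7%. Single-exon genes made up 3.54% of the common lower coding genes and 0.791% of the common higher ones, beside 2.35% of all. Protein-coding genes made up 80.9% of the common higher and 73.3% of the common lower genes, beside 63.4% of all tested genes.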

How the data were processed

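Groups were taken from the sample titles. The deposited values are estimated counts per gene, which need not be whole (76.1% of them were), and tools credited in the submitters' processing notes include STAR, RSEM 1.3.3 and HTSeq 2.0.2, with the builds GRCh38 and hg38. Which annotation was used, and with what strand setting, is not given in the sources used here. Reads of similar genes are split among them, so close copies are uncertain.

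The table held 63241 genes, 49388 of them with a total of at least 1 count after rounding. Counts were rounded, filtered with filterByExpr (23593 genes left) and scaled by TMM. One edgeR 4.0.16 quasi-likelihood fit (R 4.3.3, robust) of all 12 libraries, with a mean for each group and 8 residual degrees of freedom, gave the contrast of the mean of 3 treatments with the controls, each treatment with the controls, and the treatments with each other. Calls needed a Benjamini-Hochberg adjusted p below 0.05, taken over all tested genes, and errors of fold changes are standard errors. Levels are TMM-scaled CPM, except those of the epithelial and blood cell markers, which are CPM of the library totals. The fitting step was tested on simulated data. Gene classes and coordinates came from GENCODE 29 on GRCh38, and promoters from RefSeq by symbol: 13152 of 18992 tested genes with a symbol had one.

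Named genes are POLR1A, POLR2A, the 12 highest and 12 lowest protein-coding and up to 5 non-coding genes each way. These had to pass in every comparison, to reach 3 in average log2 CPM and to have no overlap of the 9 treated and 3 control libraries, and were ranked by the smallest of 3 absolute changes. Up to 3 members of each list were added by that rank, and members of the MYC, polymerase I, polymerase II and elongation lists could all be named. Exceptions are stated, and some genes that met the rule are not reported here. Members and lists were chosen with earlier results of these data known. No columns were left unused. Alternatives were DESeq2 1.42.0, other scalings, filters, the replicate number as a block and leaving out each library or treatment.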

Additional observations from a re-analysis of the deposited data

How the results depend on the processing

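The 109 genes named with a fold change kept direction and call in 2570 of 2611 values from 24 alternative settings, lost the call in 37, gained it in 2 and turned in 2. Those 2 turned with scaling to mitochondrially encoded mRNAs: RRN3 at 0.067 and POLR2D at 0.18 in the mean, and 17 of the 37 lost calls came with that scaling. That scaling gave 978 common lower genes and 204 lower genes passing in each comparison, and upper-quartile scaling 1898 higher genes passing in each. Requiring 2-fold left 123 higher and 206 lower, of which 207 differed between treatments. Leaving POLR1A depletion out of the rule gave 5278 common lower genes and 2264 higher and 3372 lower genes passing in each comparison, leaving out POLR2A depletion 2362 higher ones, and leaving out actinomycin D 4946 common higher genes with 2132 higher and 2703 lower passing in each. These last counts follow from a rule over fewer treatments, and for the scalings the cause was not tested.

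Leaving out 1 library gave 2937 to 3249 common higher and 3108 to 3776 common lower genes, 1023 to 1243 higher and 1288 to 1654 lower genes passing in each comparison, and 5302 to 5635 common genes that differed between treatments. With the replicate number as a block 3155 higher and 3359 lower genes were common, and 1181 and 1432 passed in each comparison. The labels name no batch for the replicate numbers. Deviations of same-numbered libraries correlated by -0.193 to 0.153 in 18 comparisons, 3 of them over 0.1. In 6 of the 18 the best partner was the same-numbered library. With 3 libraries in a group these values cannot decide whether a batch was shared. The block changed no call of the 109 genes. With no filter, which left 49388 genes to test, 3119 higher and 3801 lower genes were common, and among the 13398 genes with a mean count of 50 or more 2581 and 2818 were.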
